A study of Mus musculus with 20 samples.

Results

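NMuMG is an immortalised, non-transformed epithelial cell line from the mouse mammary gland. The comparison described here set 2 libraries of NMuMG cells treated with TGFβ against 2 libraries of untreated NMuMG cells. TGFβ was applied for 4 days according to a figure legend of the study, and a dose for the sequenced cells was not given in the sources used here. Both groups carried no shRNA and no transgene by their labels and were grown in DMEM with 10% FBS. The genes described are the 14165 that reached at least 1 CPM, a read count scaled to library size, in at least 2 of these 4 libraries, out of 54986 genes in the deposited table and 27218 with a value above 0 in any of the 4. The study profiled 20 libraries in 10 groups of 2 by RNA sequencing, to learn which transcripts accompany the epithelial-mesenchymal transition (EMT) of these cells. The other group used below is E1KD, NMuMG cells in which Pcbp1, the gene of the RNA-binding protein hnRNP E1, was silenced with an shRNA. Untreated NMuMG cells carry no shRNA vector, so effects of the vector and of the silencing cannot be told apart in that group. The remaining groups served only to estimate the spread between libraries.

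TGFβ is a secreted, latent cytokine that must be released from a matrix-bound complex before it can bind its type II and type I receptor kinases. The activated receptors phosphorylate Smad2 and Smad3, which join Smad4 and enter the nucleus to regulate target genes with partner factors. In epithelial cells the pathway is known for arresting proliferation and for EMT, in which cells give up epithelial identity and cell-cell contacts and take up a contractile, matrix-producing and migratory state.

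The libraries carried the markers of an epithelial line in part. Keratins 8 and 18, the paired keratins of simple epithelium, stood at 1285 and 1302 CPM (Krt8) and at 924 and 936 CPM (Krt18) in untreated cells. Cdh1, which encodes E-cadherin, stood at 232 and 237 CPM. Epcam, a defining epithelial marker, was listed at 0 in both untreated libraries, and Esr1, Pgr and Prlr, the hormone receptors of luminal cells, were also at 0 there. Of 8 markers of basal cells or myoepithelium, only Acta2 passed the filter, at 1.32 and 2.00 CPM after TGFβ. Of 9 immune markers, Csf1r and Cd68 passed the filter, and Cd68, a macrophage marker, had 1.06 and 1.11 CPM before and 1.94 and 2.35 CPM after TGFβ. The summed level of the 9 was 2.41 and 2.49 CPM before and 6.87 and 7.58 CPM after, with Adgre1 and Tyrobp at 0 and Ptprc, the pan-leukocyte marker, at no more than 0.0355 CPM. The part of such cells in the results was not tested. No marker of endothelium or adipocytes passed the filter, and Col3a1, Col1a2 and Lum of fibroblasts were at 0 in all 4 libraries. The summed level of 7 fibroblast markers was 0.532 and 0.548 CPM without TGFβ and 12.7 and 13.1 CPM with it, and nearly all of that was Pdgfrb. Pdgfrb, a PDGF receptor of mesenchymal cells, was at 0 in both untreated libraries and at 11.6 and 12.3 CPM after TGFβ.

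The depth was similar in both groups, at 53.0 M and 56.5 M reads for NMuMG and 59.9 M and 60.02 M for the TGFβ-treated cells, as inferred from the smallest steps of the CPM values. A count of 3 reads, the floor used for lower bounds, was worth 0.04998 to 0.0566 CPM. Replicates lay close together, with a median log2 ratio of replicate 1 to replicate 2 of 0 in NMuMG and of -0.07 after TGFβ. In E1KD the same ratio was 0.29, so that E1KD replicate 1 stood apart from E1KD replicate 2. The deposited values of E1KD replicate 1 summed to 7.286e+05 CPM and those of E1KD replicate 2 to 5.674e+05 CPM. They were not rescaled in the main fit, so values of E1KD below carry this difference. Nothing in the labels says that replicates came from separate cultures, so the p-values measure only the spread between libraries, pooled over all 20 of the series. Genes encoded by the mitochondrial genome took 5.09% and 4.94% of the summed CPM in NMuMG and 6.62% and 6.71% after TGFβ. Some libraries in the pooled spread were of another kind. Those with empty vector, Platr18 overexpression, or scrambled or Platr18 shRNA in E1KD had mitochondrial shares of 18.35% to 23.61%.

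TGFβ changed 2309 of the 14165 genes, or 16.3%. Of these, 999 (7.05%) were called higher and 1310 (9.25%) lower. A call needed an unadjusted p under 0.001 in limma and a change of at least 1 on the log2(CPM + 1) scale. That scale understates the change of genes with low values. In the same limma fit the largest Benjamini-Hochberg adjusted p among called genes was 0.00226. The untreated and treated libraries did not overlap in each of the 2309 called genes, nor in 87.7% of all 14165 genes, so that a lack of overlap alone says little here. A change of at least 2 on the log2 scale was met by 254 genes called higher and 321 called lower, and a change of at least 4 by 31 and 22. The filter itself let in 380 genes only through both TGFβ libraries and 544 only through both untreated libraries, which had to differ. Of these, 218 were called higher and 250 lower. The gene lists below and the shares over all genes include such genes. List shares and medians are thus in part set by the filter. Among genes at 1 CPM or more in all 4 libraries, 766 were called higher and 1036 lower. In the plot of mean levels the called genes lie on both sides of the diagonal over most of the range of expression.

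**Figure D1:**
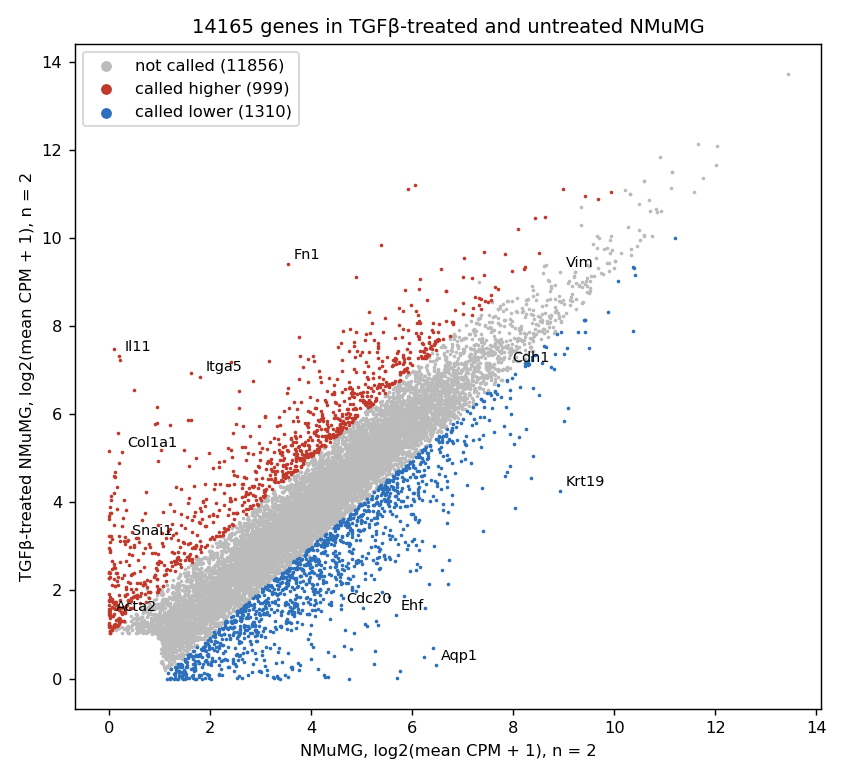
Mean level of each of the 14165 genes in NMuMG (x axis) and TGFβ-treated NMuMG (y axis), both as log2(mean CPM + 1) over 2 libraries. Red points are the 999 genes called higher, blue points the 1310 called lower and gray points the others. Fn1 and Il11 stand far above the diagonal, Krt19, Ehf and Aqp1 far below it, and Vim and Cdh1 within the gray band.

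The median log2 fold change of the 14165 genes was -0.15. Rescaling by median-of-ratios factors raised all log2 fold changes by a median of 0.11 and gave 1201 genes called higher and 1106 lower. The changes also followed gene length. Protein-coding genes with under 1000 bases of exon had a median log2 fold change of -0.49 (202 genes), and those with over 8000 bases one of 0.07 (2031 genes). In E1KD against NMuMG the same classes had medians of 0.31 and 0.11. When the median of each of 10 equal classes of exon length was subtracted, an alternative chosen after the data were seen, 1189 genes were called higher and 991 lower, so that 54.5% of calls were increases in place of 43.3%. The part of gene length in the results below was not tested.

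**Figure D2:**
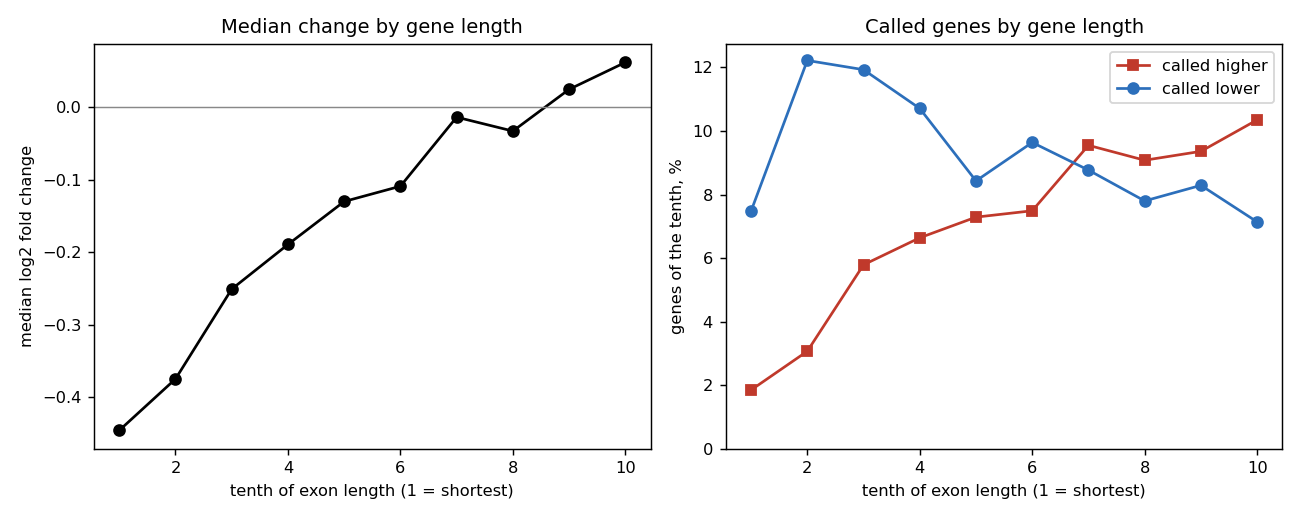
Left, median log2 fold change (TGFβ-treated over untreated NMuMG) of the genes in each of 10 equal classes of exon length, from the shortest genes (1) to the longest (10). Right, the percentage of each class called higher (squares) or lower (circles). The median goes from -0.45 in the shortest class to 0.06 in the longest, and the share called higher from 1.85% to 10.35%.

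Among the increases, the largest by the log2(CPM + 1) scale was that of Klhl30, a gene of the kelch-like family. It had 0.0709 and 0.0567 CPM in untreated cells and 172 and 185 CPM after TGFβ, a log2 fold change of 7.40 ± 0.086 (SE). Il11, the gene of the fibrogenic cytokine interleukin-11, had 0.124 and 0.170 CPM before and 153 and 164 CPM after (7.12 ± 0.11). Both genes were near absent in untreated cells and were abundant in both treated libraries. Lce1g, a late cornified envelope gene, had 0.0886 and 0.170 CPM before and 45.3 and 48.3 CPM after. Lmcd1, a LIM-domain transcriptional cofactor, had 2.02 and 2.13 CPM before and 119 and 126 CPM after. Fbxo32, the ubiquitin ligase subunit atrogin-1, had 0.938 and 0.830 CPM before and 53.1 and 54.8 CPM after. The deposited table held a further copy of Fbxo32 on a patch sequence with almost the same values, and reads may be shared between the copies. In Lce1g, Lmcd1 and Fbxo32 the treated libraries lay far above the untreated ones.

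Aqp1, the aquaporin-1 water channel, had the largest decrease. It had 88.8 and 86.0 CPM in untreated cells and 0.251 and 0.217 CPM after TGFβ (log2 fold change -6.16 ± 0.11). Lgals4, which encodes the galectin-4 lectin of the gut epithelium, had 72.8 and 75.1 CPM before and 0.301 and 0.517 CPM after. Krt19, a keratin of simple epithelia, had 475 and 495 CPM before and 16.7 and 19.6 CPM after (-4.67 ± 0.13). These genes went from high levels to low ones in both treated libraries. Ugt2b34, a glucuronosyltransferase, fell from a mean of 83.9 to 0.625 CPM, and Pcdh10, a protocadherin, from 52.9 to 0.134 CPM. Dio3, the deiodinase that inactivates thyroid hormone, had 36.5 and 37.1 CPM before and 0.251 and 0.283 CPM after. Adora1, an adenosine receptor, had 77.4 and 73.4 CPM before and 1.92 and 2.13 CPM after. Serpina1b, Serpina1a and Serpina1c, near-identical copies of the alpha-1-antitrypsin gene, were also among the 15 largest decreases. Serpina1a was listed at 0 in both treated libraries and at 25.2 and 26.8 CPM in the untreated ones, at least 460-fold lower against a floor of 3 reads per library, but reads may be split among these copies.

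Genes of TGFβ ligands and their activators formed one of the groups with the highest share of increases. Of 12 members, 9 were called higher and 0 lower, with a median log2 fold change of 1.85. Lrrc32 encodes GARP, the membrane anchor of latent TGFβ, and had 0.0886 and 0.245 CPM before and 142 and 155 CPM after (7.004 ± 0.081). Thbs1 encodes thrombospondin-1, an activator of latent TGFβ, and had 66.1 and 64.0 CPM before and 2261 and 2479 CPM after (5.16 ± 0.11). In neither gene did the groups overlap. Tgfb1, the ligand itself, had 4.09 and 5.02 CPM before and 19.5 and 21.2 CPM after (1.95 ± 0.11). Tgfb2 had 1.03 and 0.905 CPM before and 5.93 and 6.20 CPM after (1.85 ± 0.075). The latency protein Ltbp1 (2.40 ± 0.12), the activin subunits Inhba (1.85 ± 0.095) and Inhbb (2.06 ± 0.087) and the activating integrin chain Itgav (1.52 ± 0.11) were called higher as well. So was Ltbp2, of the same family as Ltbp1, listed at 0 in both untreated libraries and at 1.31 CPM in both treated ones. Ltbp2 and Lrrc32 thus passed the filter only through the treated libraries. Ltbp3 (0.59 ± 0.16), Gdf15 (-0.15 ± 0.16) and Itgb6 (-0.79 ± 0.10) were not called.

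The receptors and Smads moved less. Of 15 members, 3 were called higher and 1 lower, with a median of 0.18, and under median-of-ratios rescaling 5 were called higher. Bmpr2, the type II receptor for BMPs, had 47.7 and 48.8 CPM before and 136 and 141 CPM after. Acvr1 (1.38 ± 0.12), a type I receptor, and Smad1 (1.14 ± 0.10), a BMP effector, were the others called higher. Tgfbr3, the coreceptor betaglycan, had 16.9 and 18.4 CPM before and 3.67 and 4.43 CPM after, and was called lower (-1.89 ± 0.14). The receptor kinases themselves missed the fold threshold in opposite directions: Tgfbr1 had 132 and 134 CPM before and 72.2 and 76.7 CPM after (-0.83 ± 0.079), and Tgfbr2 had 47.5 and 49.4 CPM before and 91.7 and 95.7 CPM after (0.94 ± 0.078). Under median-of-ratios rescaling Tgfbr2 was called higher (1.06), as was the coreceptor Eng. Smad2 (-0.18 ± 0.12), Smad3 (0.23 ± 0.076) and Smad4 (0.12 ± 0.095) changed by less than 0.3 on the log2 scale and were not called.

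Feedback inhibitors of the pathway were called higher in 5 of 11 cases and lower in 0, with a median of 0.79. Pmepa1, which sequesters receptor-activated Smads, had 55.4 and 57.9 CPM before and 436 and 470 CPM after (2.98 ± 0.089). Ldlrad4, a related inhibitor, had 0.106 and 0.0378 CPM before and 5.03 and 5.12 CPM after. The corepressors Ski (1.57 ± 0.094) and Skil (1.15 ± 0.083) and the ubiquitin ligase Smurf1 (1.13 ± 0.085) were the others. Smad7, the inhibitory Smad, had 24.3 and 25.1 CPM before and 40.5 and 46.4 CPM after (0.79 ± 0.099) and was not called. Smad6 stood at 0.21 ± 0.14 and was not called.

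Of 18 early target genes, 9 were called higher and 3 lower, with a median of 1.13. Pdgfb, a PDGF ligand, had 70.6 and 70.5 CPM before and 508 and 563 CPM after (2.90 ± 0.11), so that the treated libraries lay far above the untreated ones. The cytokine Lif (2.99 ± 0.078), the kinase Nuak1 (3.06 ± 0.086), the transcription factor Bhlhe40 (2.11 ± 0.083), the matricellular protein Ctgf (2.03 ± 0.083), the chromatin protein Hmga2 (1.67 ± 0.072) and the CDK inhibitor Cdkn2b (1.49 ± 0.076) were also called higher. The Id genes, inhibitors of basic helix-loop-helix factors and targets of BMP signaling, were the 3 called lower. Id2 had 334 and 313 CPM before and 23.1 and 21.7 CPM after (-3.79 ± 0.074). Id1 had 85.9 and 92.1 CPM before and 21.02 and 20.3 CPM after (-2.06 ± 0.12), and Id3 had 8.001 and 7.83 CPM before and 3.12 and 3.47 CPM after (-1.05 ± 0.13). Id3 fell below the fold threshold without TGFβ replicate 1 (-0.9971) and under median-of-ratios rescaling. Myc (-0.02 ± 0.080) and Junb (0.36 ± 0.22) were not called.

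**Figure D3:**
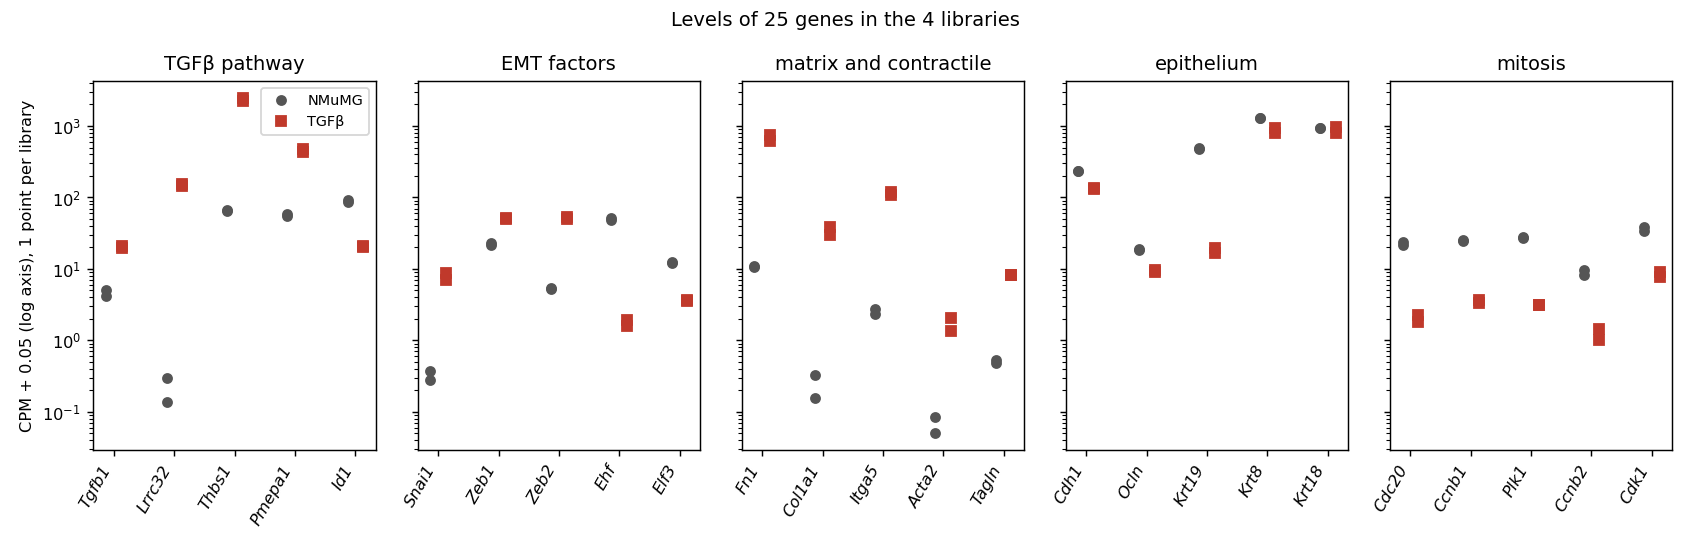
Level of 25 genes in each library as CPM + 0.05 on a log axis, with untreated NMuMG as gray circles and TGFβ-treated NMuMG as red squares, 2 libraries each. Thbs1, Lrrc32 and Col1a1 are higher in both treated libraries, Krt19, Ehf and the mitotic genes are lower, and the groups overlap for Krt18 only.

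The transcription factors that drive EMT were called higher in 4 of 12 cases and lower in 2. Snai1, which encodes the E-cadherin repressor Snail, had 0.230 and 0.321 CPM before and 6.93 and 8.63 CPM after (2.78 ± 0.084). Zeb2, a zinc-finger repressor of epithelial genes, had 5.15 and 5.34 CPM before and 50.3 and 53.3 CPM after (3.08 ± 0.082). Zeb1 had 23.2 and 21.8 CPM before and 49.2 and 51.2 CPM after (1.12 ± 0.085). The forkhead factor Foxf2 was called higher (1.43 ± 0.087), and Ets2 (-1.44 ± 0.080) and Sox9 (-1.31 ± 0.11) lower. Snai2, Twist1, Twist2 and Prrx1 did not pass the filter. Factors of epithelial identity were called lower in 5 of 9 cases and higher in 0, with a median of -1.53. Ehf, an epithelial ETS factor, had 51.2 and 48.9 CPM before and 1.55 and 1.85 CPM after (-4.24 ± 0.13). The homeobox gene Cdx2, the splicing factor Rbm47, Klf5 and Elf3 were the others, with log2 fold changes between -2.67 and -1.53. The splicing regulator Esrp2 had 35.2 and 37.8 CPM before and 24.4 and 26.3 CPM after and was not called.

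Cdh1 had 129 and 137 CPM after TGFβ against 232 and 237 CPM before (-0.81 ± 0.10), and so missed the fold threshold although the groups did not overlap. Cdh2, which encodes N-cadherin, had 21.6 and 21.8 CPM before and 104 and 117 CPM after (2.29 ± 0.14). Among 14 members of adherens junctions and desmosomes, 4 were called higher and 3 lower. Ppl and Dsp, plakins of the desmosome, were lower, with Ppl at 255 and 258 CPM before and 37.5 and 41.2 CPM after. The desmosomal cadherin Dsg2 was lower too. The nectins Pvrl4 and Pvrl2, the plakophilin Pkp1 and the catenin Ctnnd1 (1.09 ± 0.090) were higher. Of 22 members of tight junctions and polarity, 2 were called higher and 3 lower, shares near those of all genes (7.05% and 9.25%). Cldn4, a claudin, had 0.124 and 0.113 CPM before and 18.5 and 20.2 CPM after (4.18 ± 0.056), while Marveld2, which encodes tricellulin, had 10.5 and 11.1 CPM before and 1.90 and 1.90 CPM after. Lsr, a tricellular junction protein, was lower by 1.03 ± 0.13 with all libraries and by 0.87 without TGFβ replicate 1. Under median-of-ratios rescaling 1 member was called lower. Ocln, occludin, had 18.6 and 18.9 CPM before and 9.52 and 9.03 CPM after (-0.94 ± 0.11), and Tjp1 had 155 and 158 CPM before and 121 and 130 CPM after (-0.31 ± 0.11). Neither was called, but Ocln passed the fold threshold with a pseudocount of 0.1 (-1.01).

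Mesenchymal markers were called higher in 7 of 11 cases. Pdgfrb and Nes, both among these 7, passed the filter only through the treated libraries. Cdh6, a type II cadherin, had 130 and 125 CPM before and 542 and 570 CPM after. The neural adhesion molecule Ncam1 (1.89 ± 0.10) and the intermediate filament gene Nes were also higher, with Nes at 0.0532 and 0.132 CPM before and 3.09 and 3.45 CPM after. Vim, the intermediate filament gene most often read as a sign of EMT, had 474 and 496 CPM before and 561 and 630 CPM after (0.29 ± 0.11) and was not called. S100a4, also known as fibroblast-specific protein, was the member called lower, with 62.8 and 60.4 CPM before and 12.2 and 12.6 CPM after (-2.23 ± 0.16).

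Contractile and stress fiber genes rose in 18 of 27 cases and fell in 2, with a median of 1.22. Acta1, Acta2 and Tagln, all among the 18, passed the filter only through the treated libraries. Tns1, a focal adhesion protein, had 29.0 and 28.3 CPM before and 523 and 590 CPM after (4.23 ± 0.11). Acta1, skeletal actin, had 0.0355 and 0.0190 CPM before and 16.2 and 17.3 CPM after, at least 296-fold higher against the floor. Tagln, Zyx, Cald1, Tpm1, Vcl and Myh9 were also called higher, between 1.14 ± 0.17 for Myh9 and 2.78 ± 0.13 for Zyx. Mylk, the kinase of the myosin light chain, and Csrp2 were the members called lower, with Mylk at 54.7 and 53.0 CPM before and 16.97 and 19.5 CPM after. A list for the coactivators YAP and TAZ held their own genes, TEAD partner factors and target genes. Of its 19 members, 8 were called higher and 1 lower, the TEAD factor Tead4. Ankrd1, a cardiac ankyrin repeat gene, had 103 and 98.7 CPM before and 440 and 446 CPM after. Cyr61 had 75.8 and 78.9 CPM before and 369 and 400 CPM after, and F3, tissue factor, had 16.7 and 16.8 CPM before and 125 and 125 CPM after.

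Of 27 matrix glycoproteins and crosslinking enzymes, 16 were called higher and 2 lower (median 1.22). Of 15 collagen genes, 11 were called higher and 1 lower (median 2.47). Tnc, Col1a1, Col5a1 and Col4a4 passed the filter only through the treated libraries. Their direction was fixed by the filter, and these shares and medians include them. Fn1, fibronectin, had 10.8 and 10.5 CPM before and 618 and 745 CPM after (5.86 ± 0.17), a 63.9-fold higher mean. Tnc, tenascin-C, was listed at 0 in both untreated libraries and at 33.5 and 36.7 CPM after, at least 620-fold higher against a floor of 3 reads per library. Fbln2, fibulin-2, had 40.8 and 40.6 CPM before and 884 and 965 CPM after. In these genes the untreated libraries were far below the treated ones. Col1a1, fibrillar collagen I, had 0.106 and 0.283 CPM before and 30.1 and 38.4 CPM after (4.88 ± 0.12), while its partner chain Col1a2 was at 0 in all 4 libraries. The basement membrane collagen Col4a1 had 26.0 and 26.1 CPM before and 165 and 180 CPM after. Loxl2, a collagen crosslinker, had 66.2 and 65.7 CPM before and 313 and 335 CPM after, and Spp1, osteopontin, had 394 and 393 CPM before and 1423 and 1453 CPM after.

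Of 14 genes with integrin names, 6 were called higher, 2 lower and 6 neither. They were picked by name, which also matches integrin-binding proteins that are not chains. Itga5, the fibronectin receptor chain, had 2.32 and 2.68 CPM before and 110 and 121 CPM after (5.05 ± 0.11). Itgb3 had 24 and 23.4 CPM before and 229 and 246 CPM after, whereas Itga1, a collagen receptor chain, had 19.6 and 19.2 CPM before and 2.45 and 1.99 CPM after. Of 24 metalloproteases, TIMPs and plasminogen activators, 13 were called higher and 3 lower. The gelatinase Mmp9 had 0.0178 and 0 CPM before and 5.73 and 6.88 CPM after, and Mmp14, a membrane-anchored collagenase, had 27.7 and 29.3 CPM before and 118 and 130 CPM after. Of 7 laminin chains 2 were called higher and 0 lower, while their summed level was 422 and 425 CPM before and 268 and 310 CPM after. One of these, Lamb1, missed the fold threshold without TGFβ replicate 2 (0.97). Of 7 keratins Krt80 was called higher and Krt19 and Krt20 lower, while Krt8 (-0.59 ± 0.12) and Krt18 (-0.09 ± 0.14) were not called.

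Each of 26 genes of the G2 phase and mitosis was called lower, 28 table entries with the extra copies of Kif11 and Nek2, against 9.25% of all 14165 genes. Their median log2 fold change was -2.67. Mki67, the proliferation antigen Ki-67, had 514 and 505 CPM before and 57.0 and 56.1 CPM after (-3.15 ± 0.069). Cdc20, the activator of the anaphase-promoting complex, had 21.9 and 24.02 CPM before and 1.79 and 2.22 CPM after (-3.00 ± 0.16). Plk1, a mitotic kinase, had 26.7 and 27.5 CPM before and 3.03 and 3.06 CPM after (-2.79 ± 0.14). The treated libraries were thus severalfold below the untreated ones for each. Cdk1 had 38.0 and 34.2 CPM before and 7.76 and 8.96 CPM after, and Ccnb2, cyclin B2, had 9.72 and 8.13 CPM before and 0.952 and 1.38 CPM after. Foxm1, the transcription factor of the mitotic program, had 111 and 109 CPM before and 28.3 and 29.4 CPM after. In bulk RNA fewer cells in mitosis and less RNA of these genes per cell cannot be told apart. Of 27 genes of the G1/S transition and replication, 13 were called lower and 0 higher (median -0.9995), led by E2f8, Mcm5, Cdc6 and Rrm2. Ccnd1, cyclin D1, had 447 and 443 CPM before and 125 and 133 CPM after. Of the CDK inhibitors Cdkn2b was called higher and Cdkn2c and Cdkn2d lower, while Cdkn1a (0.77 ± 0.080) was not called.

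Promoters of the mitotic genes are shown because these genes moved together. The sequences are from RefSeq (GRCm38.p6), which had a promoter of 250 bases before and 50 after the start for 8255 of the 14061 gene symbols described here. The cell cycle homology region (CHR) was read as TTTGAA and the CCAAT box as CCAAT, each on both strands, so that capitals TTCAAA and ATTGG count too. The cAMP response element TGACGTCA was searched too, on the same strands, and was found in 1 of the 20 mitotic genes and in 3.91% of the genes described here. These 3 motifs were added after the decrease of the mitotic genes had been seen. A CHR was found in 14 of the 20 mitotic genes with a promoter (70.0%), in 26.2% of all genes called lower, in 11.1% of those called higher, in 13.9% of the genes described here and in 20.2% of all genes of the promoter table. The CCAAT box was found in 19 of the 20 (95.0%), against 43.4% of the genes described here and 41.1% of all genes of the table. A match is a description of the letters and was not tested for binding. The 140 bases before the start of Cdc20 (chr4:118437344-118437483, minus strand), Cdk1 (chr10:69352913-69353052, minus strand) and Ccnb2 (chr9:70421555-70421694, minus strand) follow, with CHR and CCAAT matches in capitals.
Cdc20: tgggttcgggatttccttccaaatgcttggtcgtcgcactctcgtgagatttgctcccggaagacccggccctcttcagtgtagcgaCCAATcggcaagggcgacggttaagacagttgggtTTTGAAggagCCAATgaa
Cdk1: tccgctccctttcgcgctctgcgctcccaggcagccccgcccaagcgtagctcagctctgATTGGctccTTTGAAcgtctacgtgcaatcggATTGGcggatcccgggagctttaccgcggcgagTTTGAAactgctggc
Ccnb2: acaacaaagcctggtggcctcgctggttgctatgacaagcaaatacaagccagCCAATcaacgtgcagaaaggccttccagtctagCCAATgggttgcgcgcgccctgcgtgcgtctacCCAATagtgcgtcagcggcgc
Cdc20 had a CHR at position -18 from the start and CCAAT boxes at -53 and -8, and Cdk1 had CHRs at -71 and -15 and CCAAT boxes at -80 and -48. Ccnb2 held CCAAT boxes at -87, -54 and -21 and no CHR in this stretch. Its promoter held a CHR outside the bases shown, so Ccnb2 is counted among the 14 genes with a CHR.

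In the promoters of the contractile genes, 4 of 22 held a CArG box, the site of serum response factor, against 1.6% of the genes described here and 1.81% of the promoter table. CATTCC, the core of the TEAD site, was held by 8 of 22, against 14.1% and 16.58%. The E-box CACCTG, to which Snail and Zeb proteins can bind, was found in 21.9% of genes called lower and 19.8% of those called higher. It was found in 19.98% of the genes described here and 22.56% of the table. By list, 5 of 10 epithelial transporter genes, 2 of 10 early targets and 3 of 21 genes of glycolysis held it. So did 2 of 22 contractile genes, 0 of 20 mitotic genes and 0 of 7 feedback inhibitors. The Smad-binding core CAGAC was found in 56.7% of genes called higher and 53.4% of those called lower. It was found in 51.9% of the genes described here and 53.2% of the table. By list, 7 of 10 early targets, 12 of 22 contractile genes and 11 of 21 genes of glycolysis held it. So did 5 of 10 epithelial transporter genes, 9 of 20 mitotic genes and 3 of 7 feedback inhibitors. AP-1 sites, TGANTCA, were found in 10.1% of genes called higher, 8.6% of those called lower, 6.3% of the genes described here and 8.97% of all genes of the promoter table. The full palindrome GTCTAGAC was found in 4 genes called higher (0.59%) and 0 called lower, against 0.28% of the genes described here and 0.25% of the table. Counts this small say little. Ankrd1 (chr19:36119845-36119984, minus strand) is given with its TEAD core in capitals, and Sema4f (chr6:82939770-82939909, minus strand) with its E-boxes in capitals.
Ankrd1: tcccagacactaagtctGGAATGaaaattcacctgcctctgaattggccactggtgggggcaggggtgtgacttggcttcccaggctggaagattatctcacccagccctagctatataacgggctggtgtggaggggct
Sema4f: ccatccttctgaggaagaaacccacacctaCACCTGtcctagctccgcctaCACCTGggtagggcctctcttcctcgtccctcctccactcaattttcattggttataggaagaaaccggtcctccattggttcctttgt
Ankrd1 held the core at -123, and Sema4f held E-boxes at -110 and -89.

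**Figure D4:**
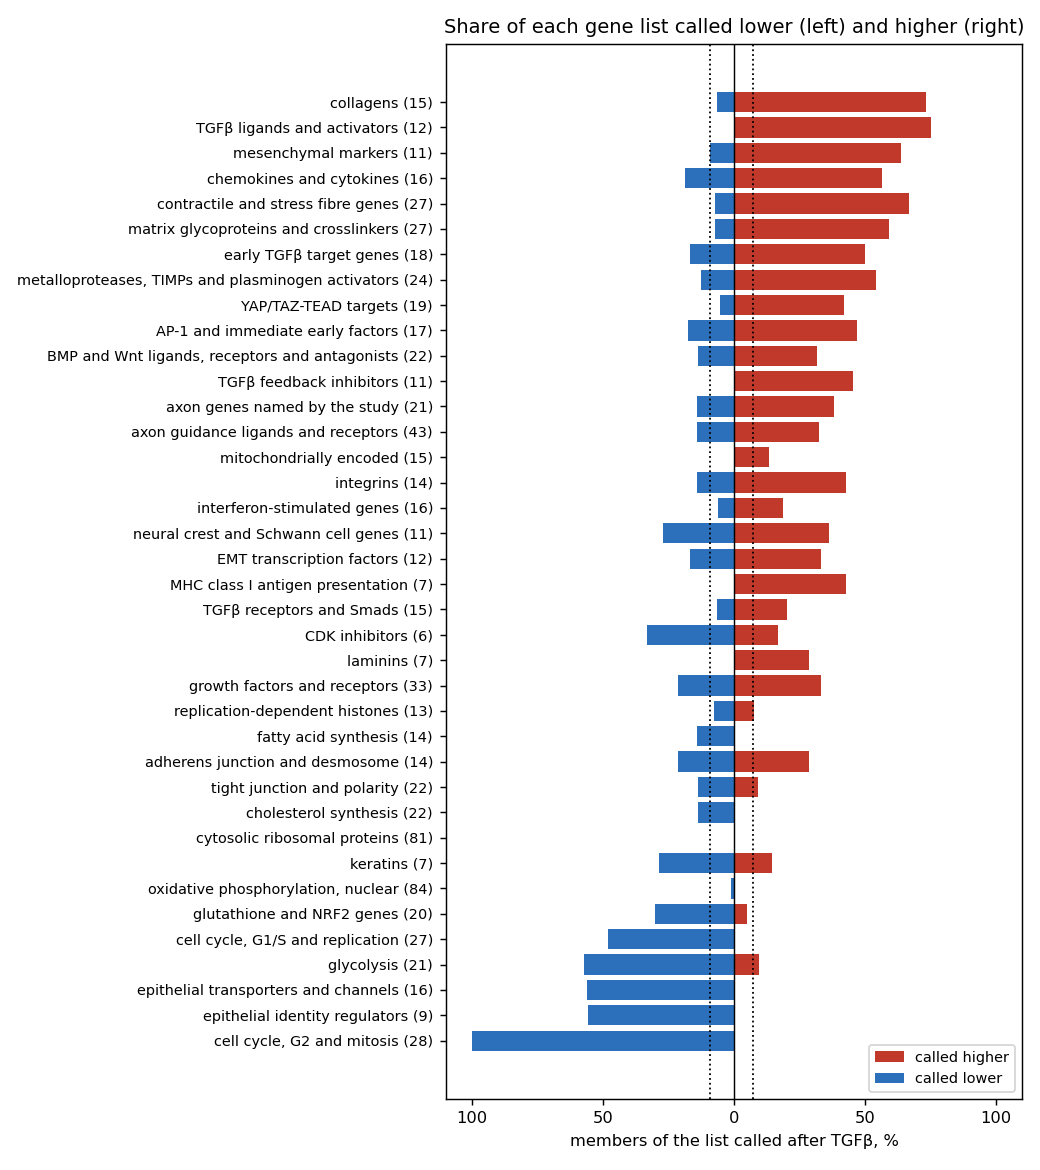
Share of the members of each gene list called higher (red, right) and lower (blue, left) after TGFβ, with the number of members in parentheses and the lists ordered by median log2 fold change. Dotted lines mark the shares over all 14165 genes, 7.05% higher and 9.25% lower. Lists and all genes alike include genes that passed the filter only through the treated or only through the untreated libraries. The list of G2 and mitosis reaches 100% on the left, and ligands and activators of TGFβ and collagens reach over 70% on the right.

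The study was concerned with the growth of axons into tumors. Of 43 axon guidance ligands and receptors, 14 were called higher and 6 lower, with a median of 0.57. Sema4f, a transmembrane semaphorin on chromosome 6 (82911885 to 82939770, minus strand, GRCm38), had 0.0532 and 0.0755 CPM before and 22.1 and 24.5 CPM after (4.51 ± 0.11). Plxna4, a semaphorin receptor, had 0.248 and 0.170 CPM before and 11.5 and 11.4 CPM after. Sema4f and Plxna4 passed the filter only through the treated libraries. Nrp2, a coreceptor, had 59.8 and 63.6 CPM before and 345 and 370 CPM after. Sema3e, a secreted semaphorin, went the other way, with 32.6 and 32.5 CPM before and 3.76 and 3.82 CPM after. Of 21 axon genes that the study chose, in part on these samples, 8 were called higher and 3 lower, which is not independent evidence of their direction. Igsf11, a synaptic adhesion gene, had 2.02 and 2.02 CPM before and 7.09 and 7.78 CPM after (1.48 ± 0.087). Bmp7 had 9.81 and 9.45 CPM before and 1.69 and 1.77 CPM after (-1.96 ± 0.12). Nrp1 (0.61 ± 0.12) and Robo1 (0.07 ± 0.14) were not called. Lncenc1, the long noncoding RNA also named Platr18, had 1.24 and 1.45 CPM before and 2.40 and 2.70 CPM after (0.60 ± 0.092) and missed the fold threshold, also with a pseudocount of 0.1 (0.88). Platr14, Platr16 and Platr20 did not pass the filter. Among 11 genes of neural crest and Schwann cells, Sox10, a master factor of these lineages, was listed at 0 in both untreated libraries and at 8.53 and 8.45 CPM after TGFβ, at least 150-fold higher against the floor. Erbb3, a neuregulin receptor, went from 6.96 and 7.45 CPM to 0.501 and 0.567 CPM.

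Secreted signals were redistributed. Of 33 growth factors and receptors, 11 were called higher and 7 lower. Pdgfa had 4.51 and 5.36 CPM before and 69.8 and 68.8 CPM after, and Fgf1, a fibroblast growth factor, had 46.3 and 44.7 CPM before and 2.25 and 2.97 CPM after. Of 22 entries for BMP and Wnt ligands, receptors and antagonists, 7 were called higher and 3 lower, and 11 were called higher under median-of-ratios rescaling. Wnt9a, a Wnt ligand, had 0.478 and 0.358 CPM before and 90.6 and 95.0 CPM after (6.05 ± 0.082). Fst, the activin antagonist follistatin, had 6 and 5.85 CPM before and 43.7 and 44.7 CPM after. Of 16 chemokines and cytokines 9 were called higher and 3 lower. Ccl7, a monocyte chemoattractant, had 0.0709 and 0.113 CPM before and 22.6 and 23.2 CPM after, Ccl2 had 27.9 and 27.4 CPM before and 189 and 182 CPM after, and the alarmin Il33 had 95.3 and 95.9 CPM before and 4.56 and 4.52 CPM after.

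Immune and stress genes changed in part. Of 7 genes of MHC class I presentation 3 were called higher, with B2m, the light chain, at 36.6 and 32.0 CPM before and 169 and 171 CPM after. Of 16 interferon-stimulated genes 3 were called higher and 1 lower. Of 17 entries for AP-1 and immediate early factors 8 were called higher and 3 lower. Jun had 8.01 and 9.92 CPM before and 51.0 and 54.0 CPM after. Csf1r, the receptor for the macrophage growth factor, had 1.13 and 1.28 CPM before and 4.45 and 4.77 CPM after, with Ptprc and Adgre1 at or near 0 in each library.

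Of 21 genes of glycolysis 12 were called lower and 2 higher, with a median of -1.05. Ldha, lactate dehydrogenase, had 940 and 935 CPM before and 307 and 332 CPM after (-1.55 ± 0.11), and Pkm, pyruvate kinase, had 1348 and 1353 CPM before and 518 and 630 CPM after. Hk2, hexokinase 2, went the other way, with 52.3 and 52.8 CPM before and 250 and 269 CPM after, as did Pfkfb3 (2.08 ± 0.090). The number called lower was 5 under median-of-ratios rescaling and 7 after the subtraction of length medians. Of 16 epithelial transporters and channels 9 were called lower and 0 higher, among them the mucin Muc1, with 104.5 and 103 CPM before and 12.7 and 12.7 CPM after. Of 20 genes of glutathione metabolism and the NRF2 response 6 were called lower and 1 higher. Gclc, which makes glutathione's first intermediate, had 53.7 and 53.0 CPM before and 11.02 and 10.7 CPM after, while Hmox1, heme oxygenase, had 10.3 and 9.50 CPM before and 37.2 and 36.9 CPM after. Of 22 genes of cholesterol synthesis 3 were called lower, and of 14 of fatty acid synthesis 2, shares near the 9.25% of all genes called lower. The count for cholesterol synthesis was 1 under median-of-ratios rescaling and 1 after the subtraction of length medians.

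None of 81 genes of cytosolic ribosomal proteins passed the thresholds, and their median log2 fold change was -0.54. Rplp0 had 698 and 702 CPM before and 397 and 484 CPM after. Of 84 entries for nuclear genes of oxidative phosphorylation, Cox8a alone was called lower, and it was not called without TGFβ replicate 1. Their median was -0.60. After the subtraction of length medians the medians of both groups were -0.29 and -0.30. Of 15 genes of the mitochondrial genome 2 were called higher and 0 lower, with a positive median of 0.47. There 4 were called higher under median-of-ratios rescaling and 7 after the subtraction of length medians (median 0.90). Of 2126 processed pseudogenes, which can take reads of their parent genes, 206 were called lower and 30 higher. The share called lower was near the 9.25% of all genes, and the share called higher was below the 7.05% of all genes.

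Runs of at least 4 neighboring genes called in the same direction were found at 12 places (GRCm38). On chromosome 12 (103450898 to 103958976) Ifi27l2b and the Serpina1 copies were lower. On chromosome 13 (60842612 to 60936626) Ctla2a and Ctla2b, inhibitors of cathepsin proteases, were higher together with 2 unnamed transcripts, and reads may be shared within that pair. On the same chromosome (31349901 to 31631404) the forkhead genes Foxq1 and Foxf2 and 2 unnamed transcripts were higher. On chromosome 6 (82725025 to 83033472) Hk2, Sema4f, M1ap and Dok1 were higher. On chromosome 1 (88095062 to 88277634) Ugt1a entries, which share exons, Mroh2a and Hjurp were lower.

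Silencing of Pcbp1 was compared with TGFβ directly. The level of Pcbp1 itself was 16.6 and 14.2 CPM in E1KD against 287 and 312 CPM in untreated cells. After TGFβ it was 210 and 220 CPM, and that change (-0.48 ± 0.085) was not called. In the limma comparison of TGFβ-treated NMuMG with E1KD, 3637 of the 14165 genes (25.7%) were called, 1055 higher and 2582 lower after TGFβ. That split depended on the scaling and on E1KD replicate 1: it was 1699 and 1555 under median-of-ratios rescaling, 1476 and 2171 with equal sums, 1334 and 1648 without E1KD replicate 1 and 882 and 3899 without E1KD replicate 2. Fitted on these 4 libraries alone it was 531 and 584. Both TGFβ and E1KD are set against the same untreated libraries where values against NMuMG are given.

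Sema4f had 20 and 15.6 CPM in E1KD against 22.1 and 24.5 CPM after TGFβ, a difference of 0.38 ± 0.11 that was not called. Lncenc1 had 17.9 and 14.6 CPM in E1KD against 2.40 and 2.70 CPM after TGFβ (-2.27 ± 0.092). Igsf11 had 45.7 and 36.9 CPM in E1KD against 7.09 and 7.78 CPM after TGFβ, so both were higher in E1KD than after TGFβ. Fn1 had 206 and 119 CPM in E1KD, below its 618 and 745 CPM after TGFβ. Sox10 was listed at 0 in both E1KD libraries. Mki67 had 618 and 539 CPM in E1KD and Krt19 had 607 and 434 CPM, and both were called lower after TGFβ than in E1KD. Id1 had 253 and 223 CPM in E1KD, above both NMuMG and TGFβ-treated cells.

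In the comparison of E1KD with NMuMG, 1280 genes (9.04%) were called. Genes called in opposite directions after the treatment and the silencing included F2r, the thrombin receptor PAR1, at 41.7 and 42.5 CPM in untreated cells, 228 and 241 CPM after TGFβ and 0.945 and 0.628 CPM in E1KD. Cyp21a1, a steroid hydroxylase, had 1.95 and 1.68 CPM, 32.6 and 38.5 CPM, and 0.335 and 0.296 CPM in the same order. S100a4 stood at 544 and 314 CPM in E1KD and at 12.2 and 12.6 CPM after TGFβ, on either side of NMuMG. Cdc20 stood at 67.2 and 42.4 CPM in E1KD, and its call there was lost without E1KD replicate 1. Cyp26b1, which degrades retinoic acid, stood at 2.67 and 2.47 CPM in untreated cells, 0.334 and 0.467 CPM after TGFβ and 38.1 and 34.1 CPM in E1KD.

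**Figure D5:**
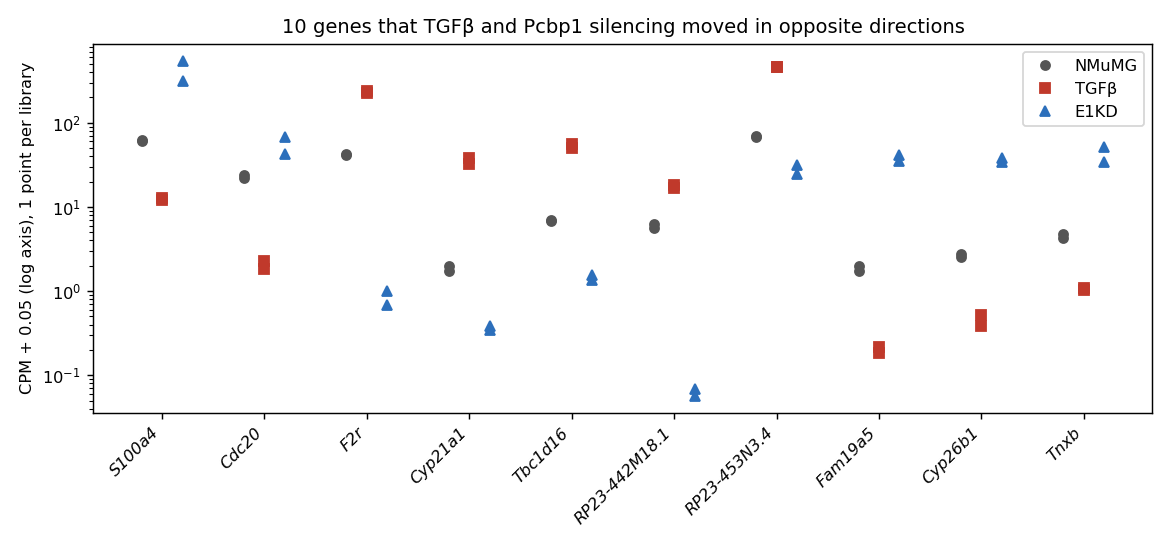
Level of 10 genes in NMuMG (gray circles), TGFβ-treated NMuMG (red squares) and E1KD (blue triangles), 2 libraries each, as CPM + 0.05 on a log axis. In each gene the NMuMG libraries lie between those of the other groups, with TGFβ above for F2r, Cyp21a1, Tbc1d16 and the transcripts RP23-442M18.1 and RP23-453N3.4, and below for the other 5.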

How the data were processed

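RNA was sequenced in single-pass runs on a HiSeq2500 after Trizol extraction. The authors aligned reads with Bowtie2 (version 2.2.5 in the submitters' processing notes) to GRCm38.p6, quantified them per gene with the Partek E/M method on M18 annotation and deposited CPM values, to each of which 0.0001 had been added. In the 4 libraries of the TGFβ comparison the deposited CPM values summed to between 5.475e+05 and 5.814e+05 per library, not to a common total. In E1KD they summed to 7.286e+05 and 5.674e+05 for replicates 1 and 2, with median-of-ratios factors of 1.337 and 0.988. Counting by strand was not stated, so overlapping and antisense genes cannot be told apart, and the E/M method splits reads among copies. Low CPM values were whole multiples of 1 read (tolerance 0.05, values under 20 reads) in 92.1% to 93.2% of cases in the libraries used here, so the values were analysed as CPM and not turned back into reads. Of 411 table entries without a name, 383 were named by their gene ID.

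All 20 libraries were fitted on log2(CPM + 1) with 1 mean for each of 10 groups and 10 residual degrees of freedom (limma 3.58.1, trended eBayes, R 4.3.3). The 17106 genes with at least 1 CPM in 2 of the 20 libraries were tested and adjusted together by Benjamini-Hochberg. The study used Partek GSA, which was not used here. The thresholds on p and fold change were chosen for this work. With 2 libraries against 2 an exact permutation test could not go below 0.333. On simulated data for the TGFβ comparison, 200 of 200 changed genes among 17106 were recovered and 1 unchanged gene was called. The simulated libraries were independent draws around the same mean per gene. The changed genes were well expressed and shifted by 2 on the log2 scale, above the threshold. Differences in scaling, gene length or kind of library were not simulated. The simulation thus checks the fitting procedure only and gives no error rate for the real calls. Named genes were the 15 largest called increases and decreases with a mean of at least 10 CPM and no overlap. To these came up to 4 called per list, the members of the 6 lists of TGFβ signaling, EMT factors and epithelial factors, and genes the study names. The 5 largest changes of entries not typed as protein-coding were added, among them Fbxo32, whose entry had no type. Up to 5 genes in each direction called oppositely in E1KD completed the set. Others, such as Plk1, Cdk1, Ccnb2, Foxm1, Pkm, Rplp0, Spp1, Mmp14 and Ccl2, were chosen after their values were seen. The genes and lists were chosen with earlier results of these data known. Exon lengths came from GENCODE M21 (14005 genes matched). Other settings tried were the pseudocount, filters, rescaling, subsets of libraries, a replicate block and leaving out each library. Tables and figures were made with Python 3.11.15, pandas 2.3.3 and matplotlib 3.10.9. A result for 1 gene is not reported here.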

Additional observations from a re-analysis of the deposited data

Results flagged for a closer look

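TGFβ and Pcbp1 silencing, each against the same untreated cells, moved some genes in opposite directions, and the direct limma comparison of both groups called the difference as well. This held for 29 genes called higher after TGFβ and for 54 called lower. The counts, recomputed after the data were seen, were 51 and 24 under median-of-ratios rescaling, 45 and 41 with equal sums, 68 and 97 with a pseudocount of 0.1, 38 and 29 without E1KD replicate 1 and 23 and 144 without E1KD replicate 2. Of the genes named next, Cdc20 was lost without E1KD replicate 1 and under median-of-ratios rescaling. The difference in log2(CPM + 1) between TGFβ-treated cells and E1KD was 7.05 for F2r, 4.79 for Cyp21a1, 4.47 for Tbc1d16, 4.19 for RP23-442M18.1 and 3.998 for RP23-453N3.4. It was -5.09 for Fam19a5, -4.95 for S100a4, -4.73 for Cyp26b1, -4.40 for Tnxb and -4.18 for Cdc20.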

How the results depend on the processing

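The 2309 genes called after TGFβ (999 higher, 1310 lower) stayed within 1.5 times of those counts under each alternative except the stricter fold threshold of 2 on the log2 scale, which gave 575 (254 and 321). A replicate block gave 2308 (1000 and 1308), and the same-number correlation of TGFβ and NMuMG libraries was 0.0899. The labels do not say whether equal numbers mark a shared batch, and 2 libraries per group cannot decide it. Leaving out each library in turn gave 2258 to 2342 calls, 948 to 1057 higher and 1201 to 1394 lower. A fit without the libraries of high mitochondrial share gave 2159 calls (968 and 1191). Against E1KD, leaving out each library gave 2982 to 4781 calls, 882 to 1334 higher and 1648 to 3899 lower. There the higher calls numbered 686 with a mean of at least 5 CPM and 1699 under median-of-ratios rescaling, with 1555 lower, and the fit of the 4 libraries alone gave 1115 (531 and 584). The replicate block there gave 3610 calls, and a crossed pairing, chosen after a same-number correlation of -0.39 had been seen, gave 3656. No named gene that was called changed its direction under any alternative. The calls of Id3, Lsr, Insig1 and Cox8a were lost without TGFβ replicate 1 and that of Lamb1 without TGFβ replicate 2. Median-of-ratios rescaling lost Id3, Lsr, Ebp, Insig1 and Cox8a, the subtraction of length medians lost these and Cdkn2d, and the fit of the 4 libraries alone lost Lsr, Lamb1, Acta2, mt-Nd6 and mt-Nd5. With 3 reads worth about 0.05 CPM, values near that level rest on few reads.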
